A study of Danio rerio with 6 samples.

Results

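Axon guidance ligands and receptors are the semaphorins, slits, netrins, ephrins and repulsive guidance molecules, together with the plexins, neuropilins, Robo, Dcc, neogenin, Unc5 and Eph receptors that read them. Members were taken by the start of the gene symbol in the deposited table of adult zebrafish retina, which gave 66 of 14781 genes. They comprised 39 ligand genes, 26 receptor genes and unc50. The last was caught by its spelling only, since unc50 is a membrane protein gene of the secretory pathway and no netrin receptor. It is described apart below but is counted among the 66 members and the 60 tested. The data were RNA-seq profiles of 3 samd7-/- fish, homozygous for the stl888 allele, and 3 WT fish. All 6 were males of 3 months raised from one kind of cross, between heterozygous carriers, and were genotyped as adults. Both retinas of a fish were pooled into 1 library, so the replicates were separate animals. Samd7 is a photoreceptor protein that in mice acts with Polycomb repressive complexes, and the study asked how it keeps photoreceptor identity. What the allele does to the transcript is not given in the sources used here.

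Guidance molecules steer growing axons by attraction or repulsion. Semaphorins act through plexins, the secreted class 3 semaphorins with neuropilins as co-receptors, slits act through Robo receptors, and netrins through Dcc, neogenin and Unc5 receptors. Ephrins and Eph receptors signal between touching cells, with ephrin-A held by a lipid anchor and ephrin-B spanning the membrane. In the retina they are best known for the layering of neurites, for the exit of ganglion cell axons into the optic nerve and, for ephrins, for the map that these axons form in the brain. Many of the genes stay on in adult neurons, glia and vessels.

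Levels below are normalised read counts, in which the authors divided the reads of a gene by a scaling factor of its library. The libraries held between 20186266 and 29117026 reads in genes. Changes are log2 differences, samd7-/- minus WT, on the log2(value + 1) scale, which understates those of low genes. Tests were run with limma on all 11335 genes that reached a value of 10 in at least 3 libraries. Adjusted p follows Benjamini and Hochberg over those genes, and a call is an adjusted p under 0.05. Means are given ± SD with n = 3 fish per genotype. Levels of different genes are not ranked against one another, because transcript lengths were not used here. The samd7 transcript was at 2471, 5121 and 3642 in the samd7-/- retinas, against 4196, 4557 and 5186 in WT, so its level did not check the genotype labels. Photoreceptor genes marked the tissue, with the cone transducin gene gnat2 between 101634 and 113526 in samd7-/- and between 223203 and 288727 in WT. WT replicate 1 stood further from its group than any other library. It differed by more than 1 log2 unit from the mean of the other 2 WT libraries at 10.1% of genes, against 4.24% to 7.16% for each other library within its own genotype.

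Most of the guidance genes differed little between genotypes, and 2 of the 60 that could be tested passed the threshold. The neuropilin gene nrp2b rose and the netrin gene ntn4 fell in the samd7-/- retinas. In bulk retina fewer cells of a type and less RNA per cell cannot be told apart. Of all genes tested 2.61% were called, 0.829% higher and 1.78% lower, so 1 guidance gene in each direction is close to the share of genes at large. With library totals as the scaling 17 members were called higher, where 17.5% of all genes were, and none lower. Beside nrp2b these were nrp1a, sema3ab, sema3b, sema3e, efna3b, epha4b, rgmb and rgmd, with slit2, robo3, 4 ephrin-B and 2 EphB genes. The remaining 6 members did not reach the filter on low values, and 55 of the 60 that did were at 10 or more in every library. At an unadjusted p under 0.05, 9 of the 60 tested members were higher and 3 lower, where all genes gave 9.38% and 11.6%. Without unc50 these were 9 and 2.

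Changes of the tested members leaned towards higher values. Of the 60, 43 had a positive log2 change, and 17 a negative one, where all tested genes gave 51.6% and 48.4%, and their median was 0.14 against 0.01 over all genes. The genotypes did not overlap for 13 members (21.7%) with higher values in samd7-/- and for 3 (5%) with lower values. Of all tested genes 13.3% and 14.8% did so. Without unc50 these were 13 and 2, of 59 tested. These counts describe the set and were not tested. Without WT replicate 1, 36 members had a positive change and the median was 0.09. Among ligands 27 of 35 tested genes had a positive change, and among receptors 16 of 24.

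**Figure D1:**
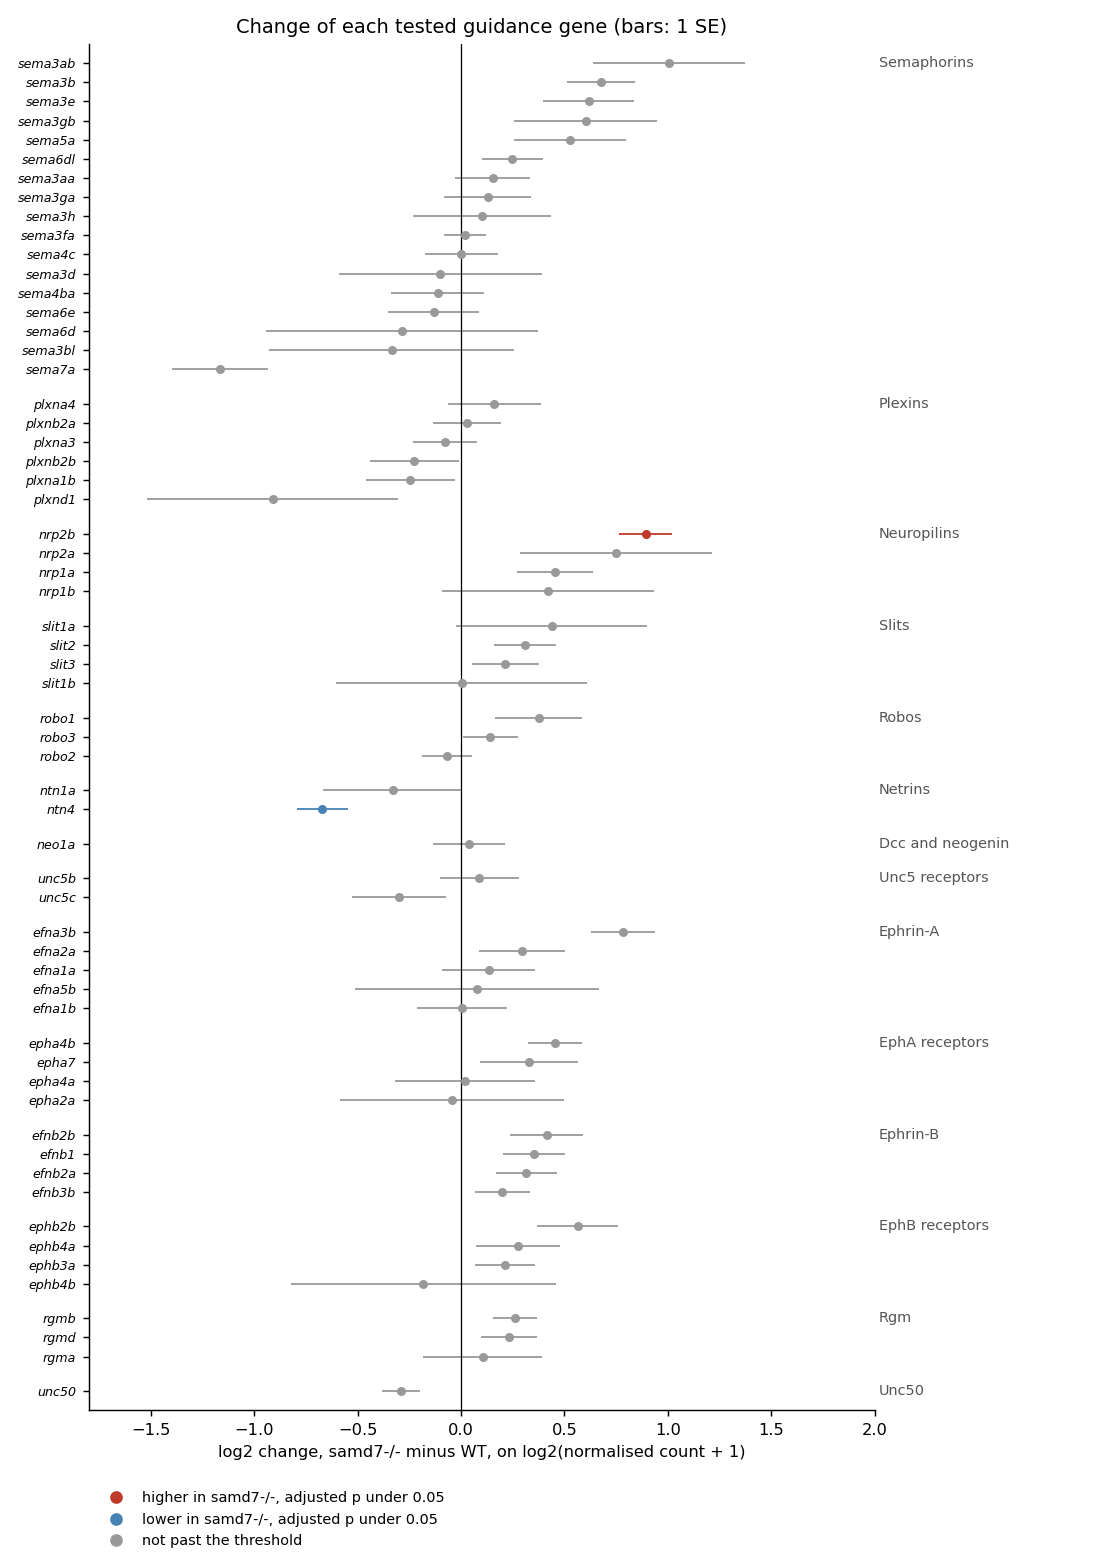
Log2 change of each of the 60 tested guidance genes, grouped by family, with bars of 1 SE from limma. The 60 include unc50. The x axis is samd7-/- minus WT on the log2(normalised count + 1) scale. Only nrp2b (0.89) and ntn4 (-0.67) are coloured as past the threshold; sema7a lies lowest at -1.16 and sema3ab highest at 1.01.

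**Figure D2:**
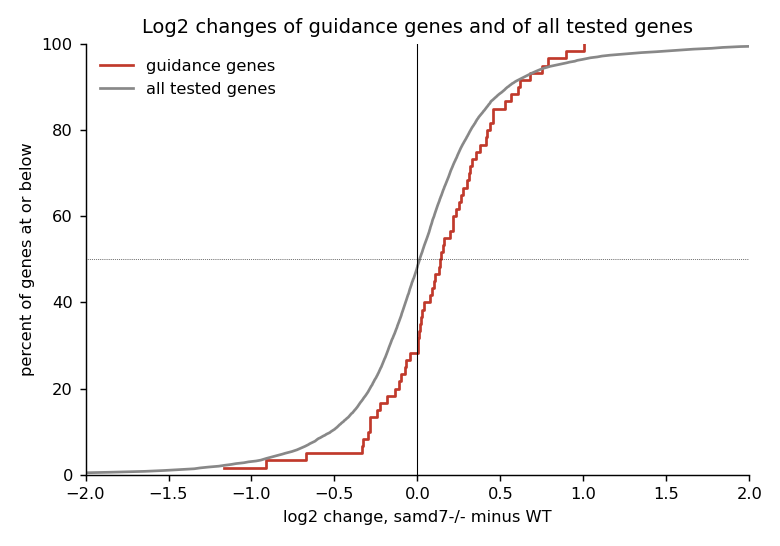
Cumulative share of genes (y axis, percent) by log2 change (x axis, samd7-/- minus WT) for the 60 tested guidance genes and for all 11335 tested genes, drawn between -2 and 2. The curve of the guidance genes crosses 50% at 0.14 and that of all genes at 0.01. The 60 guidance genes include unc50.

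Neuropilins are the co-receptors of class 3 semaphorins and also bind vascular endothelial growth factors. Their nrp2b transcript was at 508, 430.0 and 504 normalised reads in samd7-/- replicates 1, 2 and 3, against 258, 241 and 275 in WT. The lowest samd7-/- fish lay well above the highest WT fish. Means were 480.5 ± 43.7 in samd7-/- and 258 ± 16.8 in WT, a 1.86-fold rise (log2 change 0.89, SE 0.13, adjusted p = 0.0288). The limma call was lost without samd7-/- replicate 1 (adjusted p = 0.153), samd7-/- replicate 3 (0.165), WT replicate 2 (0.106) or WT replicate 3 (0.0614). Log2 changes were 0.85 to 0.94 in those fits. Over all genes, limma called 29, 247 and 23 without samd7-/- replicates 1, 2 and 3, against 296 with every library kept. Without WT replicates 1, 2 and 3 it called 366, 17 and 69.

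The other 3 neuropilins had positive changes without passing. For nrp1a, which partners plexins in the response to Sema3A, the values were 397, 356 and 329 in samd7-/- and 307, 206 and 284 in WT. The genotypes did not overlap, and the change was 0.46 (SE 0.18, adjusted p = 0.220). For nrp2a, the second copy of neuropilin 2, the samd7-/- fish held 774, 912 and 857 and the WT fish 230.2, 653 and 845 (log2 change 0.75, SE 0.46, adjusted p = 0.411). WT replicate 1 was the low one, and without it the change of nrp2a was 0.19. The nrp1b transcript was at 143, 185 and 218 in samd7-/- and at 57.8, 222 and 186 in WT, low in the same WT fish (log2 change 0.42, SE 0.51). WT replicate 3 reached into the samd7-/- range of nrp2a, and for nrp1b both other WT fish lay within or above the samd7-/- values.

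**Figure D3:**
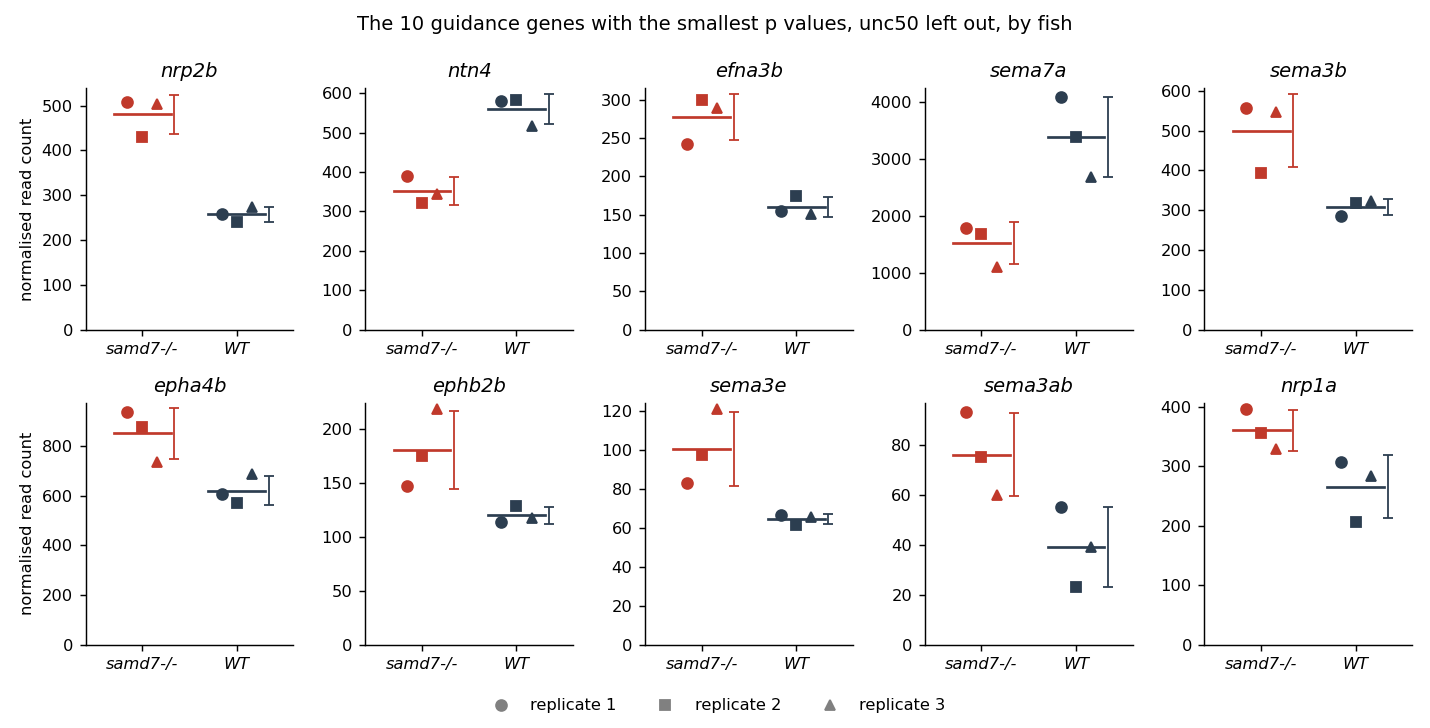
Normalised read counts (y axis, from 0) of 10 guidance genes in each samd7-/- fish and each WT fish, with a line at the mean, a bar of 1 SD and a marker shape per replicate number. The genes are the 10 with the smallest p, unc50 left out, so that separation of the genotypes follows largely from this choice. In all 10 panels the 3 samd7-/- fish lie on one side of the 3 WT fish, below them for ntn4 and sema7a and above them for the others. Of all 60 tested members 13 (21.7%) were higher and 3 (5%) lower without overlap, where 13.3% and 14.8% of all tested genes were.

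Semaphorins were the largest family, with 19 members of which 17 were tested and none was called by limma. At an unadjusted p under 0.05, 3 of the 17 were higher and 1 lower, where all genes gave 9.38% and 11.6%. DESeq2 called sema3b higher and sema7a lower, where it called 3.79% and 6.19% of all genes. The most negative log2 change among all tested members was that of sema7a, a lipid-anchored semaphorin that in mammals binds plexin C1 and integrins. It was at 1788, 1675 and 1093 in samd7-/-, against 4082, 3377 and 2670.4 in WT. Each WT fish was above each samd7-/- fish, but the spread within both genotypes was wide. Means were 1519 ± 373 in samd7-/- and 3376 ± 706 in WT, a ratio of 0.450 that lay just outside the threshold (log2 change of -1.16 with SE 0.23, adjusted p = 0.0557). DESeq2 called it (adjusted p = 0.000276), as did limma with the replicate number as a block (0.0123), though the numbers were not taken as pairs. Limma fits without any 1 library did not, with adjusted p from 0.0816 (without WT replicate 1) to 0.178 (without samd7-/- replicate 3).

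The secreted class 3 semaphorins, ligands of neuropilins and plexins, had 8 positive changes among 10 tested genes, where 51.6% of all genes had one. Of these sema3b was at 557, 394 and 548 in samd7-/-, against 286, 317 and 323 in WT (log2 change 0.68, SE 0.16, adjusted p = 0.0836). The samd7-/- replicate 2 was the nearest to WT, and without it sema3b was called higher (log2 change 0.84, adjusted p = 0.0485). Without samd7-/- replicate 1 or 3 it was not called (adjusted p = 0.260 and 0.281). Nor was it without WT replicate 1, 2 or 3 (0.112, 0.186 and 0.135). For sema3e, which in mice binds plexin D1 directly, the samd7-/- fish held 83.1, 97.3 and 121, against 66.5, 61.4 and 65.5 in WT (log2 change 0.62, SE 0.22, adjusted p = 0.179). The genotypes did not overlap for sema3e. Its receptor gene plxnd1 was low, with 3.39 to 10.5 normalised reads in samd7-/- and 7.88 to 20.7 in WT.

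The pair sema3aa and sema3ab are copies of Sema3A, a repellent of many axons. The sema3ab transcript was at 93.3, 75.3 and 60.1 in samd7-/- and at 55.1, 23.2 and 39.1 in WT, which gave the highest log2 change of all tested members (1.01, SE 0.37, adjusted p = 0.188). The WT fish spanned a 2.38-fold range, and the lowest samd7-/- fish was close to the highest WT fish. The sema3aa transcript was at 849, 864 and 1177 in samd7-/- and at 707, 875 and 1015 in WT, with overlap (log2 change 0.15, SE 0.18). The sema3fa transcript, a copy of Sema3F, hardly differed, with means of 3064 ± 265 in samd7-/- and 3024 ± 171 in WT (log2 change 0.02, SE 0.10, adjusted p = 0.945). Of the 10 class 3 genes 4 were higher and 0 lower without overlap, where 13.3% and 14.8% of all tested genes were. Among the remaining class 3 genes 1 had no overlap. The sema3gb transcript was at 32.7, 31.4 and 32.2 in samd7-/- and at 25.4, 13.9 and 25.3 in WT, without overlap (log2 change 0.60, SE 0.35, adjusted p = 0.371). The sema3ga, sema3h, sema3d and sema3bl genes overlapped, with changes of 0.13, 0.10, -0.10 and -0.33, each smaller than its SE.

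Semaphorins that span the membrane had changes of both signs. The class 5 gene sema5a was at 103, 99.4 and 82.1 in samd7-/- and at 46.4, 78.8 and 75.8 in WT, without overlap (log2 change 0.52, SE 0.27, adjusted p = 0.324). Among class 6 genes, sema6d encodes a ligand of plexin A1 in mice. It was at 4454, 5534 and 5891 in samd7-/-, against 2075, 10425 and 12128 in WT. WT replicate 1 thus lay below all samd7-/- fish and both other WT fish above them, and the change was not called (log2 change -0.28, SE 0.66, adjusted p = 0.843). Without WT replicate 1, sema6d was called lower (log2 change -1.10, adjusted p = 0.0255). Without WT replicate 2 or WT replicate 3 the sign turned, to 0.07 and 0.18. The table also holds sema6dl, which the RefSeq table of assembly GRCz12tu treats as the same gene, so reads may be divided between them. Summed, the 2 entries were at 4747, 5785 and 6131 in samd7-/- and at 2279, 10642 and 12366 in WT. The sema6dl entry alone was higher in each samd7-/- fish, at 293, 251 and 239.5, than in any WT fish, at 204, 217 and 238 (log2 change 0.25, SE 0.15). The class 4 genes sema4ba and sema4c and the class 6 gene sema6e had changes of -0.11, 0.00 and -0.13, each within its SE. Another class 4 gene, sema4e, had 5, 9 and 5 reads in samd7-/- and 3, 2 and 5 in WT and was not tested.

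Plexins, the signalling receptors of semaphorins, had no call among 6 tested genes (0 at an unadjusted p under 0.05, and 0 with DESeq2 or edgeR). Of their 6 changes 4 were negative, where 48.4% of all genes had a negative change. With library totals as the scaling the median of the family was 0.20 in place of -0.15, while that of all genes was 0.36. Relative to the median of all genes the family stood at -0.16 in that scaling and as deposited. The plxna1b transcript, one of the plexin A1 copies, was at 306, 339 and 354 in samd7-/- and at 329, 339 and 548 in WT (log2 change -0.25, SE 0.21, adjusted p = 0.560). The genotypes overlapped, with WT replicate 3 alone above the rest. The plxna4 transcript was nearly the same in all samd7-/- fish, at 333, 332 and 332, while WT spanned 224 to 413. The plxnb2a, plxna3 and plxnb2b genes differed by 0.03, -0.08 and -0.23, with SE of 0.16, 0.16 and 0.22. The low plxnd1 had the most negative change of the family, -0.91, with an SE of 0.61.

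Netrins gave the only lower call. Netrin 4, encoded by ntn4, is a secreted relative of laminin chains that in mammals binds laminins in basement membranes. Its transcript was at 390.2, 321 and 344 in samd7-/-, against 581, 583 and 516 in WT. Every samd7-/- fish lay below every WT fish, with little spread on either side. Means were 352 ± 35.1 in samd7-/- and 559.8 ± 38.2 in WT, or 62.9% of WT (log2 change -0.67, SE 0.12, adjusted p = 0.0449). The call was lost in limma fits without any one of the 6 libraries, namely samd7-/- replicates 1 (adjusted p = 0.149), 2 (0.0926) and 3 (0.194) and WT replicates 1 (0.0616), 2 (0.144) and 3 (0.0892), as well as with edgeR (0.0511). Over all genes the 6 fits without a library called 29, 247, 23, 366, 17 and 69 in that order, against 296 with every library kept. With library totals as the scaling the log2 change of ntn4 was -0.32 (adjusted p = 0.171), where the median of all genes was 0.36.

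Other netrins and their receptors were low or differed little. The attractant gene ntn1a was at 20.3 to 28.2 in samd7-/- and at 23.2 to 39.4 in WT (log2 change -0.33, SE 0.34). Its copy ntn1b and ntn2 had at most 4 and 6 reads in any library and were not tested. The netrin receptor gene dcc had 4, 7 and 3 reads in samd7-/- and 17, 8 and 9 in WT. These counts did not overlap, but dcc failed the filter. Neogenin, the receptor shared by netrins and repulsive guidance molecules, had neo1a means of 203 ± 34.7 in samd7-/- and 195 ± 10.7 in WT (log2 change 0.04, SE 0.18, adjusted p = 0.926). The repulsive netrin receptor gene unc5c, named unc5cb in RefSeq, was at 201, 313 and 228 in samd7-/- and at 361, 239 and 310.1 in WT (log2 change -0.30, SE 0.23, adjusted p = 0.50). The values of unc5b lay between 186 and 226 in samd7-/- and between 160.2 and 237 in WT. No read of unc5a, or of the semaphorin gene sema6a, was counted in any library.

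Slits and Robo receptors, which keep axons from recrossing the midline and in zebrafish guide retinal axons, gave no call among 4 and 3 tested genes (0 at an unadjusted p under 0.05, and 0 with DESeq2 or edgeR). With library totals as the scaling, slit2 and robo3 were called higher, where 17.5% of all genes were. The slit2 transcript was at 1144, 1104 and 988 in samd7-/- and at 929, 708 and 997 in WT (log2 change 0.31, SE 0.15, adjusted p = 0.291). Only WT replicate 3 reached into the samd7-/- range. The robo2 transcript, whose zebrafish mutant misroutes retinal axons, was at 2497, 2384 and 2647 in samd7-/-, against 3069, 2427 and 2435 in WT (log2 change -0.07, SE 0.12, adjusted p = 0.791). All 4 slits had positive changes, between 0.00 (SE 0.61) for slit1b and 0.44 (SE 0.46) for slit1a, both low in count, while slit3 stood at 0.21 (SE 0.16). The changes of robo1 and robo3 were 0.38 (SE 0.21) and 0.14 (SE 0.13).

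Ephrin-A ligands and EphA receptors had one member just outside the threshold. The ligand gene efna3b was at 243, 299 and 289 in samd7-/-, against 155, 175 and 150.5 in WT. The genotypes were clearly apart. Means were 277 ± 30.0 in samd7-/- and 160.1 ± 13.0 in WT, a ratio of 1.73 (log2 change 0.78, SE 0.15, adjusted p = 0.0517). It passed with DESeq2 (adjusted p = 0.000731) and with the stricter filter at a normalised value of 50 (0.0485). It did not pass with edgeR (0.0525), limma without trend (0.0766) or a replicate block (0.0691). Limma fits without any 1 library did not call it either. Their adjusted p ranged from 0.0685 (without WT replicate 1) to 0.217 (without samd7-/- replicate 3). The receptor gene epha4b was at 936, 879 and 737 in samd7-/- and at 605, 570.0 and 686 in WT, again without overlap (log2 change 0.45, SE 0.13, adjusted p = 0.114).

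Other ephrin-A and EphA genes did not separate the genotypes. For efna1b, an ephrin-A1 copy, the values were 43127, 55134 and 45686 in samd7-/- and 39784, 65178 and 41321 in WT (log2 change 0.01, SE 0.22, adjusted p = 0.991). Replicate 2 was the highest fish of each genotype. The efna5b transcript, a copy of ephrin-A5 that in the visual system helps set the retinotopic map, varied widely among fish of both genotypes. It was at 215, 85.8 and 249 in samd7-/- and at 107, 338 and 108 in WT. The epha7 transcript was at 832, 904 and 932 in samd7-/- and at 499, 718 and 989 in WT (log2 change 0.33, SE 0.24, adjusted p = 0.483). WT replicate 3 was its highest fish. The changes of efna2a and efna1a were 0.30 (SE 0.21) and 0.13 (SE 0.22). The receptor copies epha4a and epha2a differed by 0.02 (SE 0.34) and -0.04 (SE 0.54), and epha2a had at most 12.7 normalised reads in a library.

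**Figure D4:**
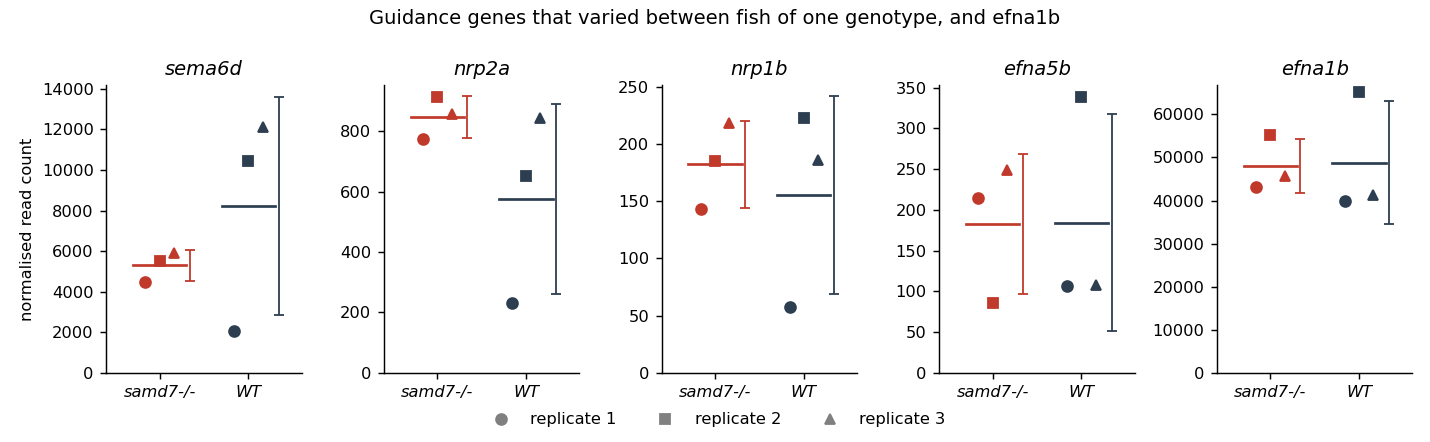
Normalised read counts (y axis, from 0) of sema6d, nrp2a, nrp1b, efna5b and efna1b in each samd7-/- fish and each WT fish, with a line at the mean, a bar of 1 SD and a marker shape per replicate number. WT replicate 1 is the lowest of the 6 fish for sema6d (2075), nrp2a (230.2) and nrp1b (57.8), and WT replicate 2 the highest for efna5b (338) and efna1b (65178).

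Ephrin-B ligands, which signal in both directions across cell contacts, all had positive changes of 0.20 to 0.41. None of the 4 was called by limma, DESeq2 or edgeR, and 0 had an unadjusted p under 0.05. With library totals as the scaling all 4 were called higher, where 17.5% of all genes were. Relative to the median of all genes the family stood at 0.32 in that scaling and as deposited. The efnb1 transcript was at 799, 750.2 and 805 in samd7-/- and at 499, 642 and 726 in WT, without overlap (log2 change 0.35, SE 0.15, adjusted p = 0.243). For efnb2b the values were 679.6, 605 and 845 in samd7-/- and 466, 489 and 644 in WT (log2 change 0.41, SE 0.18, adjusted p = 0.245). For efnb2a they were 920.4, 847 and 1001 in samd7-/- and 645, 696 and 900.5 in WT (log2 change 0.32, SE 0.15, adjusted p = 0.280). In both efnb2 copies WT replicate 3 reached into the samd7-/- range. For efnb3b, an ephrin-B3 copy, the samd7-/- values of 579, 627 and 621 stood beside WT values of 504, 471 and 627 (log2 change 0.20, SE 0.13).

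EphB receptors, the partners of ephrin-B, had 3 positive changes among 4 tested genes, where 51.6% of all genes had one. None was called by limma, DESeq2 or edgeR. At an unadjusted p under 0.05, 1 of the 4 was higher, where 9.38% of all genes were. Both ephb2b and ephb3a were called higher with library totals as the scaling, where 17.5% of all genes were. The ephb2b transcript was at 147, 175 and 218 in samd7-/-, against 114, 129 and 117 in WT. The samd7-/- values were spread over a 1.49-fold range, all above WT (log2 change 0.56, SE 0.20, adjusted p = 0.172). For ephb3a the values were 401, 466 and 447 in samd7-/- and 320.3, 390.4 and 428 in WT, with overlap (log2 change 0.21, SE 0.15, adjusted p = 0.452). The ephb4a and ephb4b genes, copies of the vessel-associated EphB4, had changes of 0.28 (SE 0.20) and -0.18 (SE 0.64).

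Repulsive guidance molecules, lipid-anchored ligands of neogenin that also serve as BMP co-receptors, had 3 positive and small changes. The rgmb transcript was at 1199, 1238 and 1401 in samd7-/-, against 1107, 978 and 1118 in WT, without overlap (log2 change 0.26, SE 0.10, adjusted p = 0.221). The changes of rgmd and rgma were 0.23 (SE 0.13) and 0.10 (SE 0.29). Outside the guidance families, unc50 was at 924, 1005 and 1040.1 in samd7-/- and at 1176, 1264 and 1186 in WT, without overlap (log2 change -0.29, SE 0.09, adjusted p = 0.142). With library totals as the scaling its change was 0.06, where the median of all genes was 0.36.

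The authors' deposited table gave an adjusted p under 0.05 for 5 of the 61 members that had one, where 10.2% of its genes with an adjusted p did so, 3.88% as higher and 6.3% as lower. In the authors' deposited table these were nrp2b (log2 fold change 0.90, adjusted p = 1.74e-06), efna3b (0.79, 0.000715) and sema3b (0.70, 0.00892) as higher in samd7-/-, and sema7a (-1.15, 0.000270) and ntn4 (-0.67, 0.000551) as lower. DESeq2 on the reads recovered here called the same 5 members, where 9.98% of all genes were called, 3.79% higher and 6.19% lower. The authors used DESeq2 on the same counts, so this repeats their test and is no independent result. With edgeR nrp2b was the single member called, where 2.25% of all genes were.

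Zebrafish carry many of these genes as a and b copies, and 10 such pairs had both copies tested. The difference between copies was compared as the log2 ratio of the a to the b copy in each fish, with a two-sided exact permutation test over the fish, whose smallest p with 3 against 3 is 0.1. No pair reached that value, and the adjusted p over the 10 pairs was at least 0.60. The largest shift was in the pair of Sema3A copies, where the log2 ratio of sema3aa to sema3ab was 3.65 ± 0.56 in samd7-/- and 4.50 ± 0.77 in WT (exact permutation p = 0.2). The log2 ratio of epha4a to epha4b was -3.54 ± 0.23 in samd7-/- and -3.11 ± 0.47 in WT (exact permutation p = 0.2). The neuropilin 2 pair had a log2 ratio of nrp2a to nrp2b of 0.82 ± 0.24 in samd7-/- and 0.96 ± 0.98 in WT (exact permutation p = 0.9). With that smallest p, the test could not pass 0.05 for any pair, so it does not show whether nrp2a and nrp2b differed in their changes.

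Many members overlap other annotated genes in the RefSeq table, among them dcc, efnb3b, epha4b, ephb2b, nrp1a, plxna1b, robo2, sema3aa, sema3e, sema5a, slit2 and unc5c. The longest list was that of efnb3b, with kdm6ba, dnah2 and serpinh2 among its genes. Without a stated strand setting the reads of these members may not be their own alone. No such overlap is listed for nrp2b, ntn4, efna3b, sema7a or sema3b.

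The spread among fish was wider in WT than in samd7-/- for these genes. The median SD of the log2 values over the 60 members was 0.18 in samd7-/- and 0.28 in WT, against 0.18 and 0.24 over all tested genes. WT replicate 1 lay more than 1 log2 unit from the mean of the other WT fish at 7 members, among them sema6d, nrp2a and nrp1b. These were 11.7% of the members, near its share of 10.1% over all genes. WT replicate 2 did so at 6 members (10%, against 6.93% of all genes) and WT replicate 3 at 5 (8.33%, against 7.16%).

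Genes inside the cell that carry guidance signals on gave a single call. Of 78 such genes listed, 52 were found in the table and 51 tested, with 1 call higher and 0 lower by limma. Over all genes 0.829% were called higher and 1.78% lower. At an unadjusted p under 0.05, 5 of the 51 were higher and 4 lower, where all genes gave 9.38% and 11.6%. DESeq2 called 3 higher and 2 lower, where it called 3.79% and 6.19% of all genes. The median change was 0.09, against 0.01 over all genes. The called gene was dpysl4, a collapsin response mediator protein of the family that relays Sema3A signals. It was at 789, 757 and 821 in samd7-/-, against 335, 459.9 and 456 in WT, a clear separation (log2 change 0.93, SE 0.15, adjusted p = 0.0380). Its limma call was lost without each library except WT replicate 1, with adjusted p of 0.158, 0.0651 and 0.178 without samd7-/- replicates 1, 2 and 3 and of 0.0988 and 0.0696 without WT replicates 2 and 3. Over all genes those fits called 29, 247, 23, 17 and 69 in the same order, against 296 with every library kept. Genes nearest to the threshold were the actin-binding ablim3 (log2 change -1.17, adjusted p = 0.0914), the kinase pak1 (0.50, 0.1004), the adaptor nck2a (-0.40, 0.119) and the GTPase rhoaa (0.26, 0.134).

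Among further cues, co-receptors and axonal adhesion molecules, 56 of 80 listed genes were found and 53 tested. Limma called 1 higher and 1 lower, where 0.829% and 1.78% of all genes were called. Of the 53, 37 had positive changes, against 51.6% of all genes, and the median was 0.25 against 0.01. At an unadjusted p under 0.05, 13 of the 53 were higher and 6 lower, where all genes gave 9.38% and 11.6%. The genotypes did not overlap for 15 higher and 6 lower of the 53, against 13.3% and 14.8% of all genes. The lean of this list was not tested. The Hedgehog co-receptor gene gas1a was at 548, 401 and 433 in samd7-/-, against 1698, 1782 and 1200.3 in WT (log2 change -1.75, SE 0.19, adjusted p = 0.0133). The receptor phosphatase gene ptprfb, of the LAR family, was at 1073, 1055 and 1071 in samd7-/-, against 681, 665 and 651 in WT (log2 change 0.68, SE 0.08, adjusted p = 0.0197). Both genes separated the genotypes widely. The limma call of gas1a was lost without samd7-/- replicate 3 (adjusted p = 0.103) or WT replicate 2 (0.0778). That of ptprfb was lost without samd7-/- replicate 1 (0.111), samd7-/- replicate 3 (0.128), WT replicate 2 (0.0900) or WT replicate 3 (0.0583). Over all genes the fits without these libraries called 29, 23, 17 and 69 in that order, against 296 with every library kept. The adhesion genes alcama (log2 change 0.41, adjusted p = 0.0594), ncam1b (-0.74, 0.0636) and chl1a (1.46, 0.0675) came next, of which alcama is also among the ganglion cell markers below.

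Markers of several cell types moved with genotype in the same libraries. Over all tested genes limma called 0.829% higher and 1.78% lower, and 9.38% and 11.6% had an unadjusted p under 0.05. The genotypes did not overlap for 13.3% of all tested genes as higher and 14.8% as lower. Cell cycle markers summed to 7863 to 15228 in samd7-/- and 4579 to 5768 in WT, and 7 of 18 tested were called higher, the lowest samd7-/- sum being that of replicate 2. Markers of newborn neurons and their progenitors had 4 of 15 called higher, 15 positive changes with a median of 1.09 and 12 without overlap, while their summed counts of 71729 to 119022 in samd7-/- and 53176 to 126077 in WT overlapped. Axons that leave the eye come from ganglion cells. Ganglion cell markers, of which 16 of 18 were in the table, summed to 29374 to 33881 in samd7-/- and 14504 to 24035 in WT, with 0 of 15 tested genes called by limma and 14 higher at an unadjusted p under 0.05; gap43 was at 0 in every library. Of the cone markers 6 of 14 were called lower and 1 higher, with sums of 1638140 to 1843660 in samd7-/- and 2102050 to 2849110 in WT. Among rod markers nrl was called lower, 8 of 9 changes were negative with a median of -1.05, and 1 of 9 was lower without overlap. The rod sums of 556128 to 2038370 in samd7-/- and 1890230 to 3054860 in WT overlapped, the lowest being that of samd7-/- replicate 1. Müller glia markers had 2 of 11 tested called higher, icn and crabp1a, and 4 without overlap, with sums of 307195 to 335769 in samd7-/- and 278496 to 290092 in WT. The median change of the Müller glia list was only 0.10, with 9 positive and 2 negative changes. The marker lists of interneurons, pigment epithelium, blood and myeloid cells, oligodendrocytes and lens held no call by limma, nor did that of vessels; at an unadjusted p under 0.05 they held 3 higher and 4 lower interneuron genes and 1 higher oligodendrocyte gene. Vessel markers, of a cell type that also uses neuropilins and plexin D1, summed to 436 to 568 in samd7-/- and 539 to 631 in WT, and pdgfrb was at 0 in every library. The part of these cells in the values of the guidance genes was not tested.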

How the data were processed

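RNA of the retinas of 3 samd7-/- and 3 WT zebrafish was read as paired ends of 150 bp, from 10 ng of RNA with 12 cycles of cDNA and 15 cycles of library amplification, per the labels' protocols. Per the submitters' processing notes the tools were DESeq2 1.34.0 in R 4.1.3, HTSeq 0.9.1, STAR 2.7.2b and Trim Galore 0.6.1, and the build was danRer10. Sources used here state neither the strand setting nor the annotation, so reads of overlapping genes on opposite strands may not be told apart. The signal values, as deposited, are read counts divided by one size factor per library (0.863 to 1.18). Of the values 100% were whole multiples of one step within 0.01 reads, so whole reads were recovered; on them edgeR called 255 genes and DESeq2 1184. The log2 fold change and adjusted p-value columns deposited by the authors were read as descriptions only.

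The test was limma 3.58.1 (R 4.3.3, trend and robust moderation) on log2(value + 1) across all genes with a value of at least 10 in 3 libraries. DESeq2 1.42.0 and edgeR 4.0.16 were run on the recovered reads as alternatives, with other pseudocounts, filters and scalings, a replicate block and each library left out. No 2 libraries of a genotype were copies (their counts differed with a chi-square of at least 58.7 per degree of freedom). The members and gene lists were chosen with earlier results of these data known. Values in full are given for members past the threshold, the next 12 by p and the member with the highest mean count of each family; further members are described beside them, chosen after their values were seen. All 66 member names were found in the RefSeq table of GRCz12tu, 62 as symbols and 4 as synonyms.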

Additional observations from a re-analysis of the deposited data

How the results depend on the processing

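Pseudocounts of 0.1 and 10, no filter on low values and TMM scaling gave the same 2 calls among the guidance genes, nrp2b higher and ntn4 lower. The replicate block also gave 1 higher and 1 lower, but with sema7a (adjusted p = 0.0123) in place of ntn4 (0.0616). Deviations from the genotype means correlated weakly between same-numbered libraries. For replicates 1 (0.186) and 3 (0.235) these were the highest correlations of any samd7-/- and WT libraries. For replicates 2 the correlation was -0.141, and samd7-/- replicate 2 correlated best with WT replicate 1 (0.125). As this did not hold for every number, the numbers were not taken as pairs. A filter at a normalised value of 50 gave 2 higher, edgeR 0 lower, and limma without trend 0 in either direction. DESeq2 gave 3 higher and 2 lower. With library totals as the scaling 17 were higher and 0 lower, while the median of all genes was 0.36 and 1987 of all genes were called higher; relative to that median the members stood at 0.13, against 0.12 in the scaling as deposited. Leaving out 1 library gave 0 to 2 higher and 0 to 1 lower.

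Over all genes the 94 higher and 202 lower calls became 8 and 22 without trend, 450 and 734 with DESeq2, and 4 to 130 higher and 11 to 236 lower without 1 library. Effector genes called higher numbered 13 with library totals, 0 without trend, 3 with DESeq2 and 0 to 1 without 1 library, and DESeq2 called 2 lower. The further cues had 20 higher with library totals, 0 higher and 0 lower without trend, 5 and 4 with DESeq2, and 0 to 2 in each direction without 1 library. In the scaling as deposited 51 effector genes and 53 further cues were tested. Of all genes 17.5% were called higher with library totals, and DESeq2 called 3.79% higher and 6.19% lower. The cause of these shifts was not tested.

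Among the members given in full by p or by level, signs turned for 7 in the fits named next. Further members turned sign with library totals, where 57 of all 60 tested members had a positive change, against 43 in the scaling as deposited. Over all genes 83.3% had a positive change with library totals, against 51.6% as deposited. With library totals the log2 changes were 0.061 for unc50, 0.10 for plxna1b, 0.28 for robo2, 0.066 for sema6d and 0.050 for unc5c. Each of these lay below the median of all genes in that scaling, 0.36. Without 1 library neo1a ranged from -0.041 to 0.19, negative without samd7-/- replicate 1 or 2, and robo2 from -0.12 to 0.045, positive without WT replicate 1. For efna1b they were -0.023 with DESeq2, -0.012 with edgeR, and from -0.12 to 0.23 without 1 library, negative without samd7-/- replicate 2, WT replicate 1 or WT replicate 3. The sema6d range was -1.10 to 0.18, positive without WT replicate 2 or 3. Too few reads were counted for dcc, ntn1b, ntn2, sema4e, sema6a and unc5a to test them, and how large a difference 3 fish per genotype could show was not measured here.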
